A study of Mus musculus with 2 samples.

Results

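The septins are a family of GTP-binding cytoskeletal proteins. The 9 septin genes described here are Sept2, Sept3, Sept4, Sept5, Sept6, Sept7, Sept8, Sept9 and Sept11, chosen by their gene names in the deposited read tables, out of 18486 annotated genes with at least 1 read. The tissue was the cerebral cortex of the left side, taken from female B6CASTF1/J mice at 14 days of age, and 2 µg of its total RNA entered each long-read library. The mice were F1 hybrids of the C57BL/6 and CAST/EiJ strains with no treatment or induced allele named in the labels. There was 1 group of 2 libraries, numbered as replicates 1 and 2, so the only comparison the design allows is between these libraries. By its label, replicate 1 may have pooled several females while replicate 2 names a single one, and a common donor entry covers both. Every p-value below therefore compares these libraries and weighs counting error only.

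Septins assemble end to end into rods built from different subunits, and the rods join into filaments and rings at membranes, where they act as scaffolds and diffusion barriers. Mammalian septins fall into groups named after SEPT2, SEPT6, SEPT7 and SEPT3, members of a group can replace each other at their place in the rod, and SEPT7 is the only member of its own group. In brain, septins are found at the base of dendritic spines, at presynaptic terminals, where SEPT5 binds the membrane fusion protein syntaxin 1, and in filaments within the myelin sheath.

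Replicate 1 held 1072344 mouse reads and replicate 2 held 753520. Each read stands for 1 sequenced molecule, so levels are given as reads per 1000000 mouse reads (RPM) and were not divided by length; whether recovery changed with transcript length was not tested. A single read equals 0.933 RPM in replicate 1 and 1.33 RPM in replicate 2, and a count of 0 allows up to 2.80 and 3.98 RPM (3 reads). Markers of cortical excitatory neurons summed to 4607 and 4220 RPM in replicates 1 and 2, and those of astrocytes to 3040 and 3204 RPM. Of 14 markers of myelinating oligodendrocytes, 7 were lower in replicate 2 and none was higher (exact binomial test, adjusted over all genes), and their sum was 6380 RPM in replicate 1 and 3741 RPM in replicate 2. Ttr, a choroid plexus transcript, read 25.2 RPM in replicate 1 and 256 RPM in replicate 2. In bulk tissue, fewer cells of a type and less RNA per cell cannot be told apart.

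All 9 genes were detected in both libraries, with 2446 septin reads in replicate 1 and 1523 in replicate 2. Their summed level was 2281 RPM in replicate 1 and 2021 RPM in replicate 2, with a mean of 2151 ± 184 RPM (SD, n = 2). The genes covered a wide range, from Sept7 at rank 169 of 18486 genes by mean RPM to Sept2 at rank 6252. By protein group, Sept2, Sept4 and Sept5 together made up 30.3% and 37.1% of the septin reads in replicates 1 and 2. Sept6, Sept8 and Sept11 made up 23.8% and 22.9%, Sept7 alone 31.6% and 25.8%, and Sept3 and Sept9 14.3% and 14.2%. The shares of the SEPT6 and SEPT3 groups thus differed by less than 1 percentage point between the libraries, and the other shares moved in opposite directions.

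Sept7, which encodes the subunit common to septin rods, had the highest mean level, with 773 reads (721 RPM) in replicate 1 and 393 reads (522 RPM) in replicate 2. Sept5, a septin of neurons and their presynaptic terminals, followed with 545 reads (508 RPM) and 451 reads (599 RPM). The order of these 2 genes was reversed in replicate 2, so their means of 621 ± 141 and 553 ± 63.8 RPM (SD, n = 2) do not separate them. Sept8, whose protein belongs to the SEPT6 group, stood at 257 and 256 RPM. Sept3, a neuronal septin of the SEPT3 group, stood at 261 and 234 RPM, and its range spans the level of Sept8. Sept4, a septin of the SEPT2 group present in myelin, was read at 152 and 130 RPM, and Sept11, of the SEPT6 group, at 160 and 111 RPM, so that these neighbours overlap. Sept6 read 126 and 95.6 RPM and overlaps the lower Sept11 value. Sept9, a widely expressed septin with several start sites, read 64.3 and 53.1 RPM. Sept2 was lowest, at 30.8 and 21.2 RPM, with the reads on its opposite strand, described below, left out. Sept9 and Sept2 each lay below every gene above them in both libraries.

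**Figure D1:**
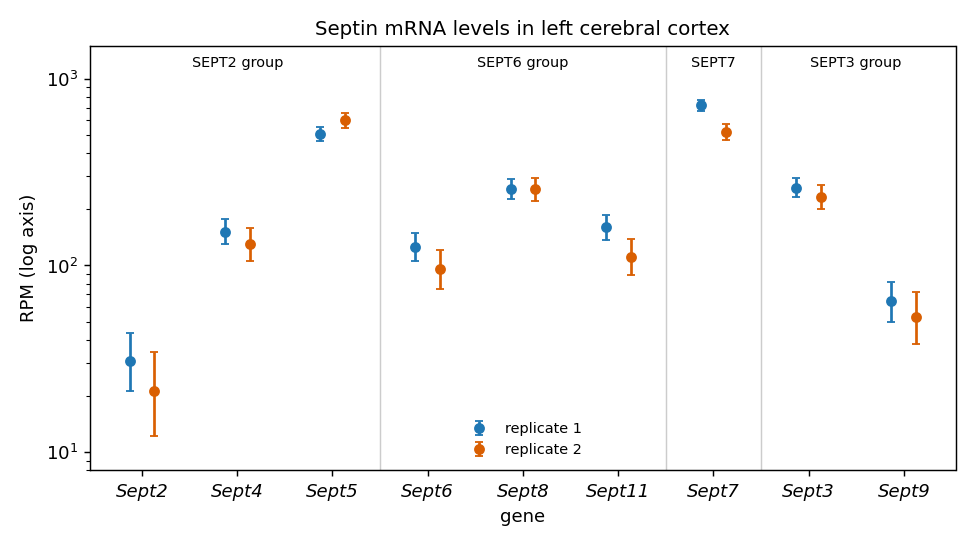
Level of each septin gene in RPM, reads per 1000000 mouse reads (log axis), in replicate 1 (blue) and replicate 2 (orange), with exact Poisson 95% intervals for counting error only. Genes are grouped by protein group, and reads on the opposite strand are left out. Sept7 and Sept5 are highest and Sept2 is lowest, and Sept5 is the only gene with the higher value in replicate 2.

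Between the libraries, 100 of the 11337 genes with 10 or more reads differed in a two-sided exact binomial test with Benjamini-Hochberg adjustment over all of them, which is 0.882%, and 0.52% were lower in replicate 2. Among the septins, 1 of 9 was called. Sept7 was lower in replicate 2, with a log2 ratio of -0.47 and an adjusted p of 5.38e-05 in the exact binomial test. The log2 ratio was also negative for 7 other members, between -0.52 for Sept11 and -0.01 for Sept8, and it was 0.24 for Sept5. Their median was -0.27, beside a median of -0.00 over all genes tested, of which 50.4% were negative. Sept11 had an unadjusted exact p of 0.0062 and an adjusted p of 0.24, and Sept5 an unadjusted exact p of 0.011 and an adjusted p of 0.32. The other septins described in myelin, Sept2, Sept4 and Sept8, had log2 ratios of -0.51, -0.22 and -0.01, and none was called. Markers of myelinating oligodendrocytes moved in the same direction as Sept7 (median log2 ratio -0.94, 13 of 14 negative). So did those of excitatory neurons (-0.29, 5 of 6), oligodendrocyte precursors (-0.07, 4 of 6) and inhibitory neurons (-0.03, 4 of 5 tested), by less. Medians were positive for markers of astrocytes (0.14, 1 of 6 negative), microglia (0.06, 1 of 5 tested) and endothelium (0.01, 3 of 6). The part of any cell type in the Sept7 difference was not tested.

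The remaining septins were rare or not seen. Sept1 had 5 and 2 reads and Sept10 had 4 and 2 reads in replicates 1 and 2. Sept12 and Sept14 had 0 reads in both, which allows up to 2.80 RPM in replicate 1 and 3.98 RPM in replicate 2. SEPT12 is known from the sperm tail.

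A list of 14 genes for septin partners and regulators was read beside the family. All 14 were detected, 11 reached 10 reads, and none of the 11 was called between the libraries, with 2 at an unadjusted exact p under 0.05, beside 973 of 11337 over all genes. Stx1a, which encodes syntaxin 1A, was the most abundant at 892 and 841 RPM in replicates 1 and 2. Slc1a3, the glial glutamate transporter that binds SEPT2, stood at 551 and 641 RPM, and Cdc42, the small GTPase whose effectors bind septins, at 574 and 552 RPM. The Cdc42 effector genes Cdc42ep1 to Cdc42ep5, also called Borg genes, were far below Cdc42, between 2.53 RPM for Cdc42ep5 and 35.3 RPM for Cdc42ep4 in the mean of both libraries. Map4, a microtubule-associated protein that interacts with SEPT2, averaged 302 RPM, and Hdac6, a tubulin deacetylase, 42.9 RPM. Myh10, a non-muscle myosin heavy chain, averaged 53.4 RPM. Of the cytokinesis genes, Cit averaged 17.6 RPM and Anln, whose protein anillin also lies with septins in myelin, 4.32 RPM.

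Long reads assign each septin molecule to a chain of introns. The authors' tables sort models into classes: chains identical to an annotated transcript (Known), chains that join annotated splice sites in a combination absent from the annotation (NIC), chains with at least 1 splice site outside the annotation (NNC), incomplete splice matches that lack 1 or both ends of an annotated chain (ISM), and Genomic models, which the tables class apart from these. These are the classes' usual meanings, and the labels do not always follow them: 20 of 1024 NIC reads in replicate 1 and 23 of 615 in replicate 2 lay on chains with a splice site outside the annotation. The classes are used as the tables give them. Of the septin reads, 39.2% in replicate 1 and 42.8% in replicate 2 matched an annotated chain. NIC and NNC chains took 49.6% (Wilson 95% interval 47.7 to 51.6%) and 45.9% (43.4 to 48.4%), with a mean of 47.8% ± 2.64 (SD, n = 2). Over all mouse reads the same classes took 9.87% and 9.57%. The family share rested first on Sept7, for which 96.9% of reads in either library lay on NIC or NNC chains and no read on an annotated one. The leading Sept7 chain lacks an annotated exon of 5 bases. As described below, no spanned exon of 11 bases or fewer had an including read in any gene. In Sept3 the share was 47.9% and 53.4%, in Sept4 38.7% and 44.9%, in Sept8 37.3% and 37.8%, in Sept11 34.9% and 42.9%, and in Sept6 28.9% and 29.2%. It was 11.2% and 10.6% in Sept5, 6.06% and 6.25% in Sept2, and 4.35% and 2.50% in Sept9. The 9 genes had 195 distinct unannotated full chains, of which 36 (18.5%) had 2 or more reads in 1 library and at least 1 in the other, and 124 rested on a single read.

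**Figure D2:**
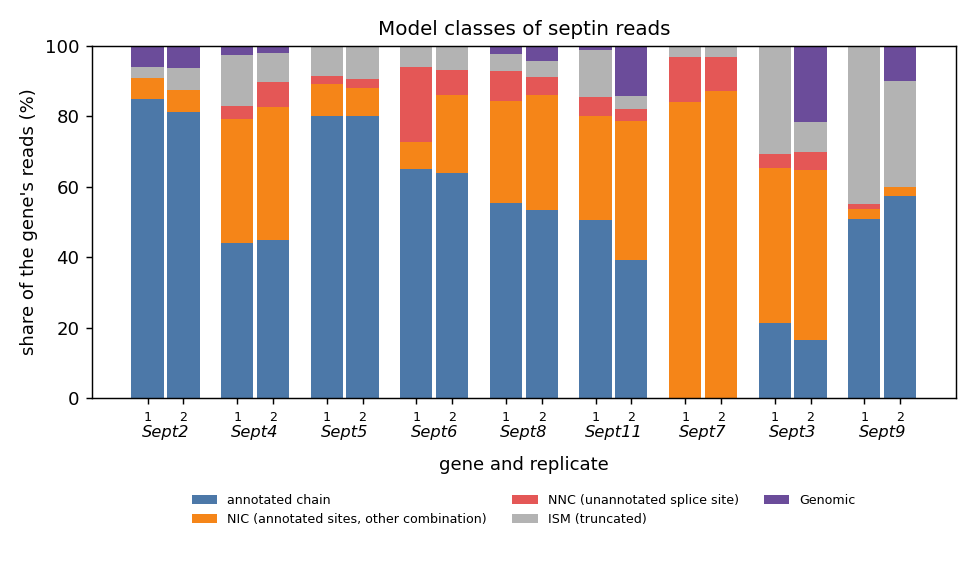
Share of each septin gene's reads (percent) by model class, in replicates 1 and 2, with genes in the order of their protein groups. The bars of Sept7 hold no annotated chain, while annotated chains make up most reads of Sept2 and Sept5; in Sept3 a Genomic part appears in replicate 2, where the ISM part is smaller than in replicate 1.

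Sept7 (ENSMUSG00000001833.17) lies on mm10 at chr9:25252439-25308571, on the plus strand. A single unannotated chain of 13 exons held 633 of its 773 reads in replicate 1 (81.9%) and 336 of 393 in replicate 2 (85.5%). It shared 11 introns with the annotated coding transcript Sept7-201 and differed from it at the start: its intron chr9:25252700-25265393 runs from the annotated first donor to the third exon and leaves out an annotated exon of 5 bases. The annotation places that exon at chr9:25265302-25265306 in Sept7-201 and at chr9:25264203-25264207 in Sept7-202. Both placements are shown because the unannotated intron of the leading chain passes over them, with 12 bases of the neighbouring exons on each side, from the GENCODE M21 transcripts (GRCm38, plus strand), and capitals mark the 5-base exon.
Sept7-201: gcggcaccatggTTTGTcaaccgaagaac
Sept7-202: gcggcaccatggTAGCTcaaccgaagaac

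Of 1138 spliced Sept7 reads whose models span the first placement, none included the exon, and of 1137 that span the other, none did. By counting error alone this allows a share of up to 0.264% of the models in either case. The first exon of Sept7-201 holds 61 coding bases, which with the 5 bases make 66, a multiple of 3. The lack of including reads was shared by every exon of this size in these libraries. All 79 annotated internal exons of 1 to 11 bases that were spanned by 20 or more reads, in 63 genes, had no including read among 15269 spanning reads. Of 37 exons of 12 to 14 bases, 36 had none, and of 88 exons of 15 to 20 bases, 45 had none. Of 314 exons of 21 to 27 bases, 33 had none and the median inclusion was 95.6%. The deposited models give positions and no read sequence, so whether the Sept7 reads carry these 5 bases was not tested here. The limit of 0.264% therefore does not bound the share of the exon in the RNA.

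**Figure D3:**
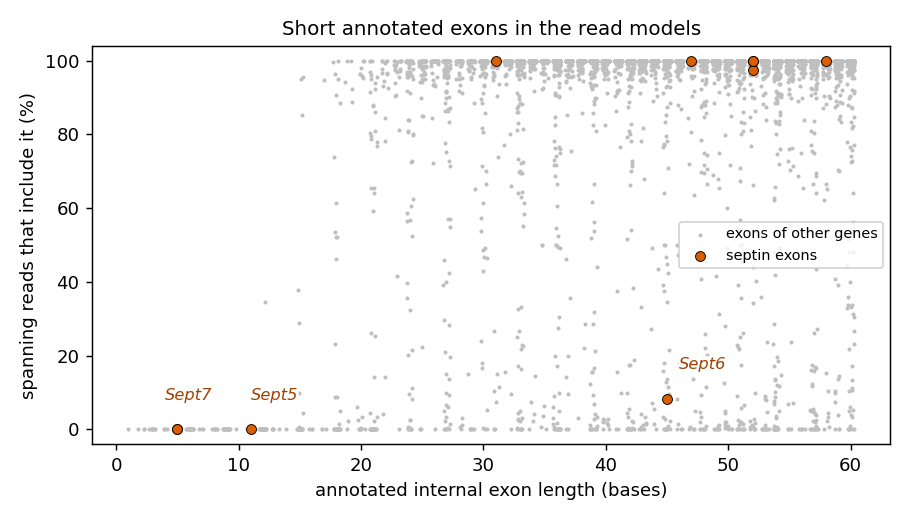
Share of spanning reads that include an annotated internal exon (percent) against its length in bases, for exons of up to 60 bases and both libraries summed; grey points are exons of other genes and orange points those of septin genes. The exons of Sept7 (5 bases) and Sept5 (11 bases) lie at 0% with every other exon of 11 bases or fewer, and the longer septin exons lie near 100% except the 45-base exon of Sept6. Reads with another form of an exon count on neither side. The 47-base exon of Sept4 therefore lies at 100%, although its acceptor took only 20.3% and 25.6% of reads in replicates 1 and 2.

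The other Sept7 chains differed mainly at the first donor. Of 749 reads on full chains in replicate 1 and 381 in replicate 2, 88.7% and 92.7% used the donor of the main chain. The other 5 first introns that met the read minimum all ended at the same acceptor, had no annotated counterpart and took between 0.525% and 3.07% in either library. They fell into 2 close pairs, whose donors lay 4 and 2 bases apart, and 1 further donor. One more change lay inside the coding region, an acceptor 51 bases downstream of the annotated one, used by 2.28% and 1.85% of reads. The bases it removes are shown in capitals between 12 bases of flanking exon on each side, as they are a multiple of 3 and the chain with this acceptor was found in both libraries (chr9:25277544-25277594, plus strand, GENCODE M21).
Sept7 acceptor shift: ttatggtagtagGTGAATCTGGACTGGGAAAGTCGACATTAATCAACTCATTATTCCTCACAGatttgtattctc

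Sept5 (ENSMUSG00000072214.7, chr16:18620502-18629954, minus strand) was made mostly of 1 annotated transcript. Sept5-205, of 378 codons, held 437 of the 545 replicate 1 reads (80.2%) and 361 of the 451 replicate 2 reads (80.0%), a difference within either Wilson interval. Its first intron was used by 93.0% and 94.1% of the full chains. A start further upstream, that of Sept5-201 with 369 codons, was used by 4.62% and 3.91%. None of 41 spanning reads included the annotated 11-base exon that follows this start, which by counting error alone allows a share of up to 7.32% of the models. No annotated exon of 11 bases or fewer had an including read in any gene. This limit therefore does not bound the share of the exon in the RNA. Of those reads, 23 in replicate 1 and 16 in replicate 2 joined the upstream exon to the shared exon. The upstream first exon of Sept5-201 holds 43 coding bases, which with the 11 bases make 54, again a multiple of 3. The leading chain without that exon had 22 and 13 reads in replicates 1 and 2. A further unannotated chain, Sept5-205 with an acceptor shifted by 36 bases, had 6 and 7 reads. The pair of coding starts gives the protein different first residues and is printed up to the end of the first exon, with the start codon in capitals, from GENCODE M21 (GRCm38, minus strand), at chr16:18626088-18626168 for Sept5-205 and chr16:18629808-18629850 for Sept5-201. The 11-base exon follows, at chr16:18629651-18629661, in capitals between 12 flanking bases on each side.
Sept5-205 start: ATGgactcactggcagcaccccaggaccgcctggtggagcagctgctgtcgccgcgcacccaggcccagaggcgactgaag
Sept5-201 start: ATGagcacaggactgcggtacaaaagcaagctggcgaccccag
Sept5-201 short exon: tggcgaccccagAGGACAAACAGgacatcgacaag

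Downstream of Sept5 on the same strand lies Gp1bb, which encodes a subunit of the platelet receptor for von Willebrand factor. Its annotated span overlaps that of Sept5, and it had 58 reads in replicate 1 and 32 in replicate 2. Counting all same-strand models over the Sept5 span would give 603 and 483 reads in place of 545 and 451. The other genes whose span overlaps a septin, Gm49601, Gm48272, Gm11492, Gm16045 and Gm15008, had 0 reads.

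Sept3 (ENSMUSG00000022456.16, chr15:82274893-82294574, plus strand) was most often read with a 3′ end that the annotation lists only on other chains. Its leading chain, with 107 of the 280 replicate 1 reads (38.2%) and 71 of the 176 replicate 2 reads (40.3%), had the introns of Sept3-201 plus a last intron at chr15:82290832-82293245. That intron is annotated in Sept3-206, a transcript that starts inside the gene. Among full chains, the last intron of Sept3-206 was used by 63.9% (57.0 to 70.3%) and 74.8% (66.5 to 81.6%), and the long unspliced last exon of Sept3-201 by 26.3% and 20.3% (Wilson 95% intervals). The difference between libraries in the first share had an exact p of 0.048 in Fisher's test and an adjusted p of 0.91. These shares leave out unspliced reads within the long last exon, 48 in replicate 1 and 38 in replicate 2, which are described below. Full chains with the long last exon numbered 51 and 25, and those with the spliced end 124 and 92. With annotated chains alone the order was the other way round, because the leading chain is not annotated. The mean was then 8.56% for the spliced end and 81.3% for the long last exon. Sept3 kept 60 reads in replicate 1 and 29 in replicate 2. Its level was then 71.8 RPM, with annotated reads as the total in place of all mouse reads. Sept3-204 adds a 66-base exon before the spliced end, and it was included by 5.56% and 1.89% of spanning reads. The ends differ in coding sequence, and both are printed from the point where they part to the stop codon, in capitals, from GENCODE M21 (GRCm38, plus strand), at chr15:82290832-82290873 for Sept3-201 and chr15:82293246-82293311 for Sept3-206.
Sept3-201 end: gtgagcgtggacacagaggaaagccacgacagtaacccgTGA
Sept3-206 end: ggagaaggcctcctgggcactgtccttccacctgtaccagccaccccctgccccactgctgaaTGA

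The first intron of Sept3 was that of Sept3-201 in 89.2% and 87.0% of full chains, and that of Sept3-202, from an exon upstream, in 8.25% and 7.32%. The unannotated chain with the upstream exon of Sept3-202 and the spliced end had 8 and 9 reads. The Sept3 level also held 48 reads in replicate 1 and 38 in replicate 2 with no intron. Their models lay within the long last exon, and all 48 were classed as ISM in replicate 1 and all 38 as Genomic in replicate 2. The same change of class touched Sept9, with 14 unspliced ISM reads in replicate 1 and 4 Genomic reads in replicate 2. It also touched Sept11, with 14 ISM, 2 Genomic and 2 Known unspliced reads in replicate 1 and 12 Genomic reads in replicate 2. Over the family, unspliced reads were 84 ISM, 17 Genomic and 2 Known in replicate 1, and 3 ISM and 66 Genomic in replicate 2. Leaving out Genomic reads therefore removed the Sept3 end reads of replicate 2 alone, and Sept3 was then called lower there, with a log2 ratio of -0.50 (adjusted p = 0.0447), as was Sept11, with -0.72 (adjusted p = 0.0258, exact binomial test). With spliced reads alone, a setting chosen after seeing these values, the ratios were -0.19 (adjusted p = 0.90) for Sept3 and -0.53 (adjusted p = 0.34) for Sept11 in the same exact test, and Sept7 remained the 1 member called, at -0.42 (adjusted p = 0.0015).

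Sept9 (ENSMUSG00000059248.13, chr11:117199661-117362325, plus strand) used several first exons. Of 38 full chains in replicate 1 and 24 in replicate 2, the short form Sept9-204, of 334 codons, took 39.5% and 58.3%. The long form Sept9-201, of 576 codons, took 31.6% and 16.7%, Sept9-203, also of 334 codons, 10.5% and 12.5%, and Sept9-205, of 565 codons, 10.5% and 8.33%. The Wilson 95% intervals are wide at this depth, 25.6 to 55.3% and 38.8 to 75.5% for Sept9-204. A change of starts between the libraries was not detectable. The shares leave out ISM reads, 31 of the 69 Sept9 reads in replicate 1 and 12 of the 40 in replicate 2. An ISM chain of 10 exons had 10 and 8 reads. Sept9-204 and Sept9-203 have 10 exons in full, so that chain can only be part of a longer transcript. Whether short or long forms led was therefore not settled. With ISM reads in the total, the mean share fell from 48.9% to 33.1% for Sept9-204 and from 24.1% to 16.5% for Sept9-201. The coding starts are printed to the end of the exon that holds them because they set the length of the protein, with the start codon in capitals, from GENCODE M21 (GRCm38, plus strand), at chr11:117266541-117266595 for Sept9-201, chr11:117232698-117232719 for Sept9-205 and chr11:117351461-117351620 for Sept9-204.
Sept9-201 start: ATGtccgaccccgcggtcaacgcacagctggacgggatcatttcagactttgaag
Sept9-205 start: ATGgagagagatcgcatcacag
Sept9-204 start: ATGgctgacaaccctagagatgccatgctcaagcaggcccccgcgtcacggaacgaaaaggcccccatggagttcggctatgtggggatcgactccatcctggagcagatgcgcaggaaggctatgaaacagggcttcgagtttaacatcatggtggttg

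Sept8 (ENSMUSG00000018398.18, chr11:53519257-53549565, plus strand) carried a pair of separate choices near its 3′ end. Sept8-204, of 484 codons, held 134 of the 276 replicate 1 reads (48.6%) and 94 of the 193 replicate 2 reads (48.7%). A chain with 66 and 55 reads (23.9% and 28.5%) had the introns of Sept8-203 up to the last one and then the last intron of Sept8-204, a combination that the annotation does not list. The distal last exon of Sept8-204 was used by 82.0% and 86.4% of full chains, and the nearer one of Sept8-201, of 429 codons, by 7.42% and 4.55%. A further 8.20% and 2.84% reached the distal exon through an unannotated acceptor 3 bases downstream (Fisher's exact test, p = 0.023, adjusted p = 0.74). The alternative ends are printed from the start of the last exon to the stop codon, in capitals, as they give the protein ends of different length, from GENCODE M21 (GRCm38, plus strand), at chr11:53548291-53548459 for Sept8-204, chr11:53541210-53541213 for Sept8-201 and chr11:53541475-53541517 for Sept8-207.
Sept8-204 end: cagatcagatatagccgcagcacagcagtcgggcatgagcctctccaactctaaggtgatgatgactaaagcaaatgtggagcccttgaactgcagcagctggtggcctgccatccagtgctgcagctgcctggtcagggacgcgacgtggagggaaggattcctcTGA
Sept8-201 end: tTAA
Sept8-207 end: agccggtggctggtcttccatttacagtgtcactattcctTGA

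Upstream in Sept8, an acceptor pair 6 bases apart offered the other choice. The downstream acceptor, which drops 6 bases, was used by 32.7% (27.3 to 38.6%) of 260 replicate 1 reads and by 36.5% (29.8 to 43.7%) of 181 in replicate 2. Because a read holds both sites, the choices can be read together. The distal last exon followed in 89.6% and 94.5% of reads that kept the 6 bases, and in 94.1% and 92.1% of those that dropped them, with overlapping Wilson intervals in each library. The 6 bases (chr11:53534949-53534954) and the 3 bases at the start of the distal last exon (chr11:53548291-53548293) are shown in capitals with 12 flanking bases on each side.
Sept8 6 bases: taaggatgacagTTACAGgcccatagttga
Sept8 3 bases: ggacaagaagaaCAGatcagatatagc

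Sept11 (ENSMUSG00000058013.11, chr5:93093437-93176447, plus strand) had the most varied 3′ end of the family, with 6 last introns above 5% on average. That of Sept11-203, of 431 codons, was used by 53.8% (45.7 to 61.7%) of 145 full chains in replicate 1 and 40.6% (29.8 to 52.4%) of 69 in replicate 2. An unannotated intron, chr5:93167688-93175403, which joins an inner exon directly to the same last exon, took 8.97% and 20.3%. That of Sept11-205 took 13.1% and 8.70%, Sept11-201 6.21% and 13.0%, Sept11-207 8.97% and 8.70%, and Sept11-208 5.52% and 8.70%. In each case the Wilson intervals of the libraries overlap. The exon before the last occurs in a 65-base and a 68-base form, from acceptors 3 bases apart. The 65-base form was included by 70.7% (59.6 to 79.8%) of spanning reads in replicate 1 and 37.5% (22.9 to 54.7%) in replicate 2, with reads that carry the 68-base form left out (Fisher's exact test, p = 0.0022, adjusted p = 0.63). The 68-base form was included by 68.1% and 51.2%. These values did not pass the test over all exons.

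The 65-base acceptor of Sept11 took 52.5% of the 101 replicate 1 reads and 36.1% of the 36 replicate 2 reads, so neither form was rare. The leading unannotated Sept11 chain, with 31 and 15 reads, was Sept11-203 with the 68-base form. The last exon that followed was the upstream one in 88.0% and 83.3% of reads with the 65-base form and in 84.1% and 81.0% of reads with the 68-base form. The alternative coding ends are printed to the stop codon, in capitals, since the stop lies before the last splice in some forms and after it in others, from GENCODE M21 (GRCm38, plus strand), at chr5:93173473-93173494 for Sept11-203, chr5:93171339-93171354 for Sept11-201, chr5:93176040-93176043 for Sept11-208 and chr5:93167688-93167691 for Sept11-205. The last line shows the 3 bases that make the 68-base form (chr5:93173470-93173472), in capitals with 12 flanking bases on each side.
Sept11-203 end: tccctggctctgcacggaaTAA
Sept11-201 end: tgcaagcttcgcaTAA
Sept11-208 end: cTGA
Sept11-205 end: gTAA
Sept11 3 bases: ggataagaaaaaTAGtccctggctctg

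**Figure D4:**
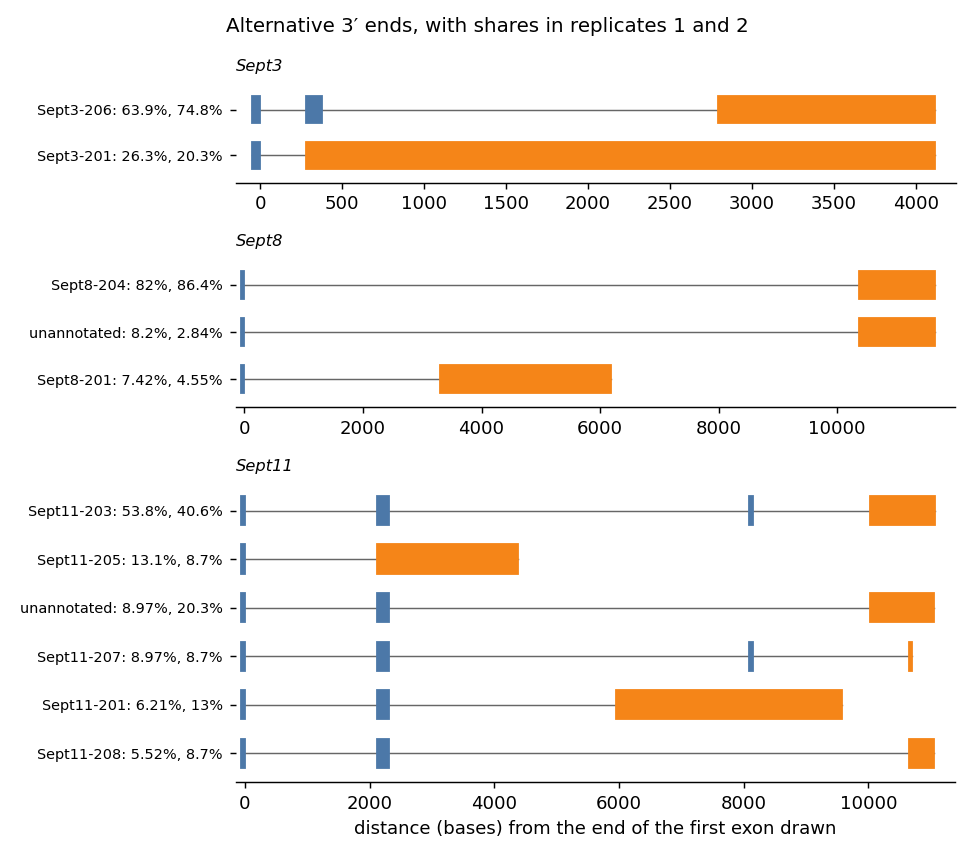
Exons at the 3′ ends of Sept3, Sept8 and Sept11, drawn to scale against the distance in bases from the end of the first exon shown, for last introns used by 5% or more of full chains on average; orange marks the last exon, and each line names an annotated transcript with that last intron and its share in replicates 1 and 2. In Sept3 the spliced end leads the long last exon when unannotated chains are counted and trails it with annotated chains alone, in Sept8 the distal last exon leads, and Sept11 spreads over 6 ends.

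Sept6 (ENSMUSG00000050379.15, chrX:36911326-36991794, minus strand) was led by Sept6-202, of 429 codons, with 83 of the 135 replicate 1 reads (61.5%) and 44 of the 72 replicate 2 reads (61.1%). Its first intron was used by 95.3% and 89.6% of full chains and its last intron by 88.2% and 85.1%. A 45-base exon before it was included by 6.82% and 11.3% of spanning reads, and the unannotated last intron that follows this exon took 5.51% and 8.96%, led by a chain with 7 and 4 reads. An unannotated donor that shortens an exon by 27 bases, a multiple of 3, was used by 19.5% (13.6 to 27.2%) of 128 reads and 14.1% (7.83 to 24.0%) of 71. The chain with this donor had 22 and 7 reads and was classed as NNC in replicate 1 and as NIC in replicate 2, although its introns were identical. The lost bases (chrX:36942055-36942081, minus strand) are shown in capitals with 12 flanking bases on each side, because this donor carried the main unannotated chain of the gene. The coding ends of Sept6-202 (chrX:36913245-36913254), Sept6-203 (chrX:36915323-36915347) and Sept6-201 (chrX:36920410-36920413) follow, with the stop codon in capitals (GENCODE M21, GRCm38).
Sept6 27 bases: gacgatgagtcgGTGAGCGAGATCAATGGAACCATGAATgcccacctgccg
Sept6-202 end: cttttttTAA
Sept6-203 end: taacccatggctgtgtattgaaTAG
Sept6-201 end: tTAA

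Sept4 (ENSMUSG00000020486.18, chr11:87568903-87590539, plus strand) combined a coding exon near its start with a shifted acceptor near its end. Sept4-205, of 459 codons, held 53 of the 163 replicate 1 reads (32.5%) and 27 of the 98 replicate 2 reads (27.6%). Sept4-206, of 313 codons, held 7 reads in each library, and Sept4-208, annotated as a retained intron, 2 and 6 reads. The unannotated chains found in both libraries had 23 and 15, 14 and 9, and 7 and 4 reads. The second of these was Sept4-203 with the first intron of Sept4-205. A 297-base coding exon, chr11:87583318-87583614, was included by 69.2% (60.9 to 76.4%) of 133 spanning reads and 64.3% (53.6 to 73.7%) of 84. The first intron that leads to it was used by 62.2% and 60.2% of full chains, and the one that skips it by 26.7% and 31.8%. The usual last intron was used by 94.8% and 89.8%. Another annotated last intron, chr11:87584486-87585117, took 2.96% and 7.95%, or 4 and 7 reads. Sept4-207 carries it, but no read matched the chain of that transcript. These reads included the 2 and 6 of the retained-intron Sept4-208. Near the end, an annotated acceptor 53 bases downstream was used by 20.3% and 25.6% of reads, and 53 is not a multiple of 3. On the same reads, the downstream acceptor followed in 22.8% and 26.8% of molecules with the 297-base exon and in 20.0% and 25.9% of those without it, so a link between the choices was not detectable within the Wilson intervals. The coding ends that follow from the acceptors are printed with the stop codon in capitals, at chr11:87590316-87590375 for Sept4-205 and chr11:87590009-87590027 for Sept4-206 (GENCODE M21, GRCm38, plus strand).
Sept4-205 end: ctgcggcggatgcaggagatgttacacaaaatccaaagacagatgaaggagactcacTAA
Sept4-206 end: ggacagatccagaaacTGA

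**Figure D5:**
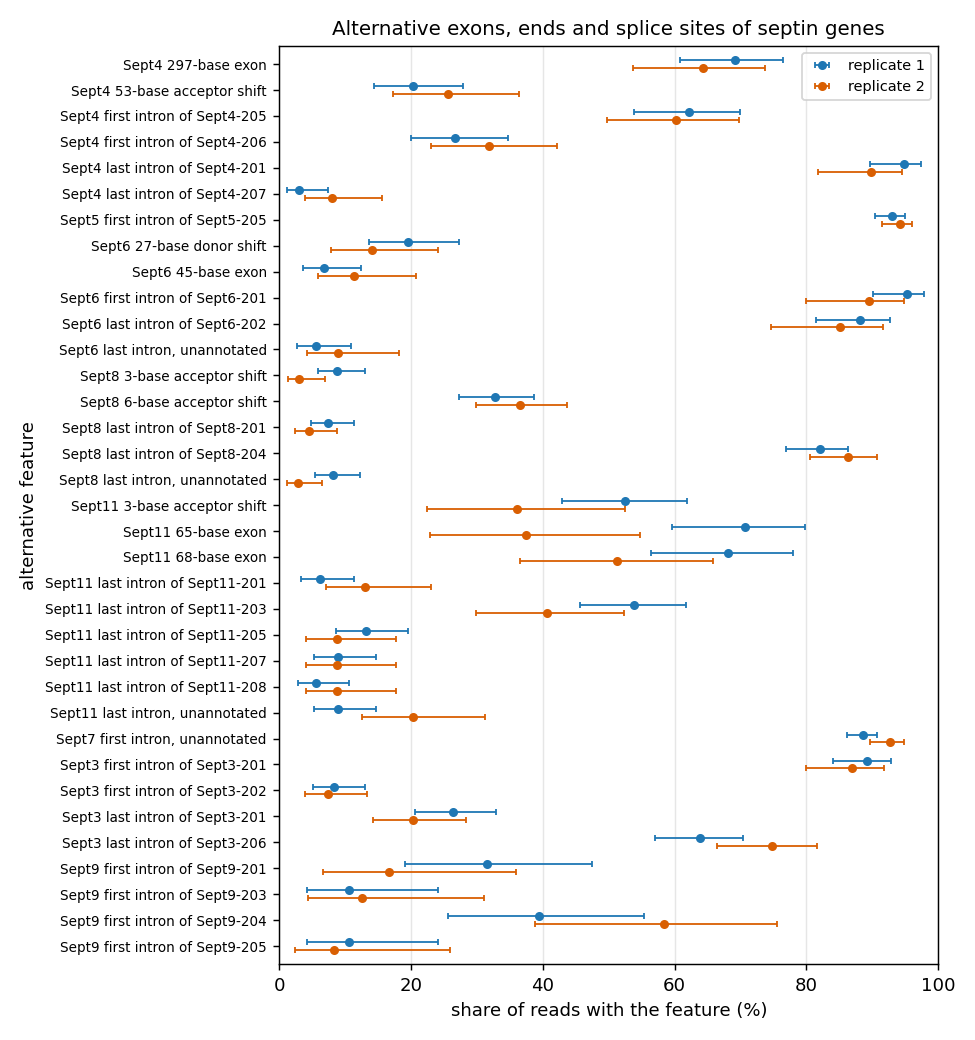
Share of reads (percent) with each alternative exon, first or last intron or splice-site shift of the septin genes, in replicate 1 (blue) and replicate 2 (orange) with Wilson 95% intervals; each intron is named by an annotated transcript that carries it. The intervals of the libraries overlap for every feature drawn except the 65-base exon of Sept11.

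Over all genes, 1 of 2577 alternative internal exons (0.0388%) and 25 of 8817 first or last introns (0.284%) differed between the libraries (Fisher's exact test, adjusted by Benjamini-Hochberg). None of the 10 septin exons and none of the 43 septin introns was among them, with 1 and 5 at an unadjusted exact p under 0.05, beside 110 of the 2577 exons and 471 of the 8817 introns over all genes. Splice choices of the septins therefore showed no difference past the threshold between these libraries, at depths of 24 to 754 reads per choice and library.

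Sept2 (ENSMUSG00000026276.20, chr1:93478964-93510260, plus strand), which names its protein group, was read mainly as Sept2-201, of 361 codons, with 26 of the 33 replicate 1 reads and 13 of the 16 replicate 2 reads. Sept2-214, which has the same number of codons, had 2 reads in replicate 1 and 0 in replicate 2. A second gene identifier at chr1:93478993-93509733 carries the same name in the annotation, and its reads were counted together with the first. The locus gave far more reads on the opposite strand. In replicate 1, 222 reads lay opposite Sept2, of which 218 formed a single unspliced model at chr1:93507855-93509733, over the last exon, and in replicate 2, 143 reads, of which 135 formed a model at chr1:93507713-93509733. That is 207 and 190 RPM, beside 30.8 and 21.2 RPM on the Sept2 strand. Sept11 showed a similar layer, with 115 and 114 opposite reads, of which 100 in each library lay in 1 unspliced model over the region of the Sept11-201 last exon. The remaining genes had between 0 and 22 opposite reads in either library. Whether these reads come from RNA of that strand or from the orientation given to unspliced reads was not tested.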

How the data were processed

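The authors deposited, per library, a table of raw read counts per transcript model and the models' exon coordinates on mm10; per the file headers, the annotation is GENCODE M21 and the models come from TALON. The aligner's version is not given in the sources used here. Counts were summed by gene name and divided by the library's mouse reads. In the runs with annotated transcripts only or without Genomic reads, they were divided by the library's mouse reads kept in that run. Models were matched between libraries by intron positions. With 1 group of 2 libraries, edgeR's quasi-likelihood test has no residual degrees of freedom, so genes with 10 or more reads were compared by an exact binomial test (log2 ratios with a pseudocount of 0.5 reads), and splice choices with 20 or more reads per library by Fisher's exact test, each adjusted over all features. Intervals (Wilson for shares, exact Poisson for levels) cover counting error only. The tests were tested on simulated data. Within a gene, the text names annotated transcripts with 5% of its reads in either library, alternative features with a mean share of 5 to 95% and unannotated chains of 10 or more reads found in both libraries; smaller features and splice-site shifts were added after their values were seen. Alternatives were annotated transcripts only, no Genomic reads, edgeR TMM factors, another pseudocount and other read minimums. The values of 1 gene of the partner list are not reported here. The members and gene lists were chosen with earlier results of these data known. Python 3.11.15, scipy 1.17.1, R 4.3.3 and edgeR 4.0.16 were used.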

Additional observations from a re-analysis of the deposited data

Results flagged for a closer look

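Reads on the strand opposite a septin gene, which enter no comparison above, were more than a count of 0 allows in both libraries at 4 genes. They numbered 222 in replicate 1 and 143 in replicate 2 at Sept2, 115 and 114 at Sept11, 22 and 19 at Sept7, and 10 and 6 at Sept3. Nearly all were unspliced, namely 222 and 143 at Sept2, 115 and 113 at Sept11, 22 and 19 at Sept7, and 9 and 6 at Sept3. Over all genes, 97.8% and 98.0% of antisense reads were unspliced.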

How the results depend on the processing

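With annotated transcripts only, the septin genes called fell from 1 to 0, since Sept7 then has no reads. The genes called over all genes fell from 100 to 35. Septin reads fell from 2446 to 960 in replicate 1 and from 1523 to 652 in replicate 2. The summed septin level went from 2151 to 1345 RPM. The second value has annotated reads as its total, in place of all mouse reads. These levels are therefore not on the same scale, and they understate the fall. Without Genomic reads, 3 septin genes and 176 of all genes were called. With spliced reads only, chosen after seeing the data, 63 of all genes and 1 septin gene were called. The share of unannotated chains was 47.8% of all septin reads and 53.8% of full chains. Both values include Sept7, at 96.9% and 100%, whose leading chain lacks the 5-base exon. Leaving out each replicate in turn gave summed levels of 2021 to 2281 RPM and shares of 45.9 to 49.6%. The log2 ratio of Sept8, -0.01, turned to 0.0125 with annotated transcripts only and to 0.0441 with spliced reads only. No septin splice choice was called under any alternative run. With annotated transcripts only, 1 septin exon and 23 septin introns could be tested, against 10 and 43 in the main run. That run called no exon or intron of any gene, so it says little about the septins. With TMM factors or no read filter 1 septin was called; with TMM factors the log2 ratio of Sept7 was -0.49 (exact binomial test, adjusted p = 1.01e-05). No paired analysis was possible because the design has 1 group. Depth limits Sept2 and Sept9 most, at 16 and 40 reads in replicate 2.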
